A study of Mus musculus with 7 samples.

Results

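Genes that neurons and other cells switch on after stimulation, 10 in all, were followed through the cell classes of the posterolateral cortical amygdala (plCoA), a cortical area that receives input from the olfactory bulb. The 10 genes were Nr4a1, Nr4a3, Fosb, Fosl2, Egr3, Egr4, Homer1, Dusp1, Ier2 and Per1, taken by symbol from the 32285 genes of the single-nucleus RNA sequencing tables, and all 10 were found. The study set the anterior part of the area (aplCoA) against the posterior part (pplCoA) in male C57BL6J mice aged 8 weeks, with 3 biological replicates per domain. Each replicate was a pool of microdissected tissue pieces from several mice, so the spread between replicates is a spread between pools. All mice were of the same strain and sex, and the domains were dissected from the same area. aplCoA replicate 1 was sequenced as 2 libraries, which were summed and counted as 1 replicate. Mice were housed alone and deprived of sensory input for a day, a step the study took to lower spurious immediate early gene signal. They were killed in the dark period under ketamine and xylazine and perfused with cold buffer, the brain was sliced, and nuclei were isolated from frozen pieces and sorted. The comparison asks whether early and later activity genes differed between the domains alike in neurons and in the other cells, which share dissection and handling within each replicate.

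Immediate early genes are transcribed within minutes of a rise in calcium, growth factor or stress signalling, without new protein synthesis, and many of them encode transcription factors that drive a later wave of genes. In neurons they report recent firing, while in glia and in the cells of the brain's coverings they also respond to injury, stretch and inflammation. The early genes here were Nr4a1 (an orphan nuclear receptor), Fosb (a subunit of the AP-1 factor), Egr3 and Egr4 (zinc finger factors), Ier2 (a nuclear protein of the rapid response) and Dusp1 (a phosphatase that switches off MAP kinases). The later genes were Nr4a3 (a second orphan nuclear receptor), Fosl2 (an AP-1 subunit that replaces Fos) and Homer1 (a scaffold of the postsynaptic density). Per1, a clock gene that is also induced by stimulation and by glucocorticoids, was kept apart. Homer1 counts pool the short, inducible form with the long forms, because the tables hold 1 row for the gene.

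On the mm10 build, Nr4a1 lies at chr15:101254269-101274795, Nr4a3 at chr4:48045153-48086447, Dusp1 at chr17:26505590-26562128 and Per1 at chr11:69095217-69109960. Homer1, at chr13:93299635-93405129, spans 105 kb, of which 88.6% is intron. Ier2, at chr8:84661331-84662852, is a gene of 1522 bases with no intron. The other members are Fosb (chr7:19302696-19310051), Fosl2 (chr5:32135801-32157842), Egr3 (chr14:70077203-70082614) and Egr4 (chr6:85511121-85513589). Reads in introns were counted, so long genes with long introns give more molecules per nucleus, and levels are compared below between classes and not between genes.

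The promoters of 4 members are shown, Nr4a1, Nr4a3, Dusp1 and Per1, out of 6 that had their highest level in the same class. Per1 also differed between the domains in glutamatergic neurons. The others of the 6, Fosl2 and Ier2, are not shown, and no promoter was available for Ier2. RefSeq (GRCm38.p6) gave promoters for 8 of the 10 members. The 250 bases before the RefSeq start are printed 5′ to 3′ on the strand of the gene. In all 4 genes this start lies inside the gene span given above, which begins at the outermost annotated transcript. Capitals mark TGACG, the core of the cyclic AMP response element, the full element TGACGTCA, and the E-box CACGTG that clock factors bind, on either strand.
Nr4a1: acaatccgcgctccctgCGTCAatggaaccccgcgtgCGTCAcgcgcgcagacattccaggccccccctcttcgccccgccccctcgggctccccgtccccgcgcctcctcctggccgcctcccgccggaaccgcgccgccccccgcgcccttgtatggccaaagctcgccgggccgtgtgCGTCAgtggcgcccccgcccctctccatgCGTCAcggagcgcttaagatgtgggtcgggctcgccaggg
Nr4a3: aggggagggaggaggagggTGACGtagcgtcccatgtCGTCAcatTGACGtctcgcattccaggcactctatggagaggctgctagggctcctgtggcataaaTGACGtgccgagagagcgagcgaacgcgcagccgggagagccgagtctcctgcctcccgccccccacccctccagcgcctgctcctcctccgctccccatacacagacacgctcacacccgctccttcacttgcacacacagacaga
Dusp1: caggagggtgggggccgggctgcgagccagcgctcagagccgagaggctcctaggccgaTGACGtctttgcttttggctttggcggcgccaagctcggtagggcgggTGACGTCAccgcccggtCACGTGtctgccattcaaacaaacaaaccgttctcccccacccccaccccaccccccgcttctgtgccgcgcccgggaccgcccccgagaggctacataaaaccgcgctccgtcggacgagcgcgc
Per1: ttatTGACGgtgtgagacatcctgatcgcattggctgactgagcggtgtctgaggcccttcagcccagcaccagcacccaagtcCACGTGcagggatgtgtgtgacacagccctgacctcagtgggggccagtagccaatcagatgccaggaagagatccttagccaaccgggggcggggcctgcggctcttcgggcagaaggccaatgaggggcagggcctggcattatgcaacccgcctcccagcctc
These windows are chr15:101266596-101266845 (+), chr4:48045055-48045304 (+), chr17:26508473-26508722 (-) and chr11:69098699-69098948 (+). TGACG was found at 4 places for Nr4a1, at 4 for Nr4a3 and at 1 for Per1. Dusp1 has 3 matches at 2 places, since the full element holds the core on both strands. The core stands in 17.8% of the 32851 promoters of the table, the full element in 1.55% and CACGTG in 6.02%. CACGTG was present in the windows of Dusp1 and Per1, but not in that of a second RefSeq start of Per1 (chr11:69099902-69100151). The window of Fosl2, which was highest in the same class, held none of these letters.

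The libraries held 50812605 to 129624583 unique molecular identifiers (UMIs) each. From 52201 barcodes with at least 1000 genes, 46389 nuclei were kept, with a median of 5147 to 6759 UMIs per nucleus over the 7 libraries. Any pair of libraries shared 5 to 37 barcodes. Clusters, built without the activity genes, were named from fixed markers as glutamatergic neurons (19719 nuclei), GABAergic neurons (5031), astrocytes (9745), oligodendrocyte precursor cells (OPCs, 3642), newly formed oligodendrocytes (NFOLs, 310), mature oligodendrocytes (MOLs, 1531), microglia (2780), vascular leptomeningeal cells (VLMCs, 1858) and arachnoid barrier cells (ABCs, 1052). The summed level of the ABC markers was 2267 to 3080 CPM in ABCs (CPM, a gene's UMIs scaled to all UMIs of its class and replicate) and 134 to 199 CPM in VLMCs. The aplCoA libraries had the higher median share of mitochondrial UMIs, 0.0241% to 0.0493% against 0.0098% to 0.0166% in pplCoA. ABCs were 2.58% to 4.27% of nuclei in aplCoA and 0.618% to 1.03% in pplCoA.

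The level of a gene varied widely between classes. Of the 10 genes 6, Nr4a1, Nr4a3, Fosl2, Dusp1, Ier2 and Per1, had their highest mean in ABCs, the cells that seal the arachnoid membrane. Egr3, Egr4 and Homer1 were highest in glutamatergic neurons, and Fosb in VLMCs. None of the 80 differences between neighbouring classes in these orders passed an exact paired permutation test after adjustment, since 6 replicates allow no p below 0.0312, which adjusted to 0.147 at the lowest. The order is therefore given with the number of replicates that showed it, and differences between classes are on the log2(CPM + 1) scale.

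Nr4a1 reached 155, 166 and 95.9 CPM in the ABCs of aplCoA replicates 1 to 3 and 47.5, 118 and 101 CPM in those of pplCoA. GABAergic neurons came next at 28.1 ± 5.87 CPM (SD, n = 6), lower than ABCs in 6 of 6 replicates. OPCs (22.2 ± 3.73 CPM) and glutamatergic neurons (20.0 ± 3.15 CPM) followed closely. MOLs had the lowest mean, 3.76 ± 3.24 CPM, and were below VLMCs in 6 of 6 replicates.

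Nr4a3 was higher in ABCs than in glutamatergic neurons, the next class, in 5 of 6 replicates. ABCs held 232, 192 and 161 CPM in aplCoA and 14.2, 113 and 112 CPM in pplCoA, so pplCoA replicate 1, with 54 ABC nuclei, stood apart and was the exception. Glutamatergic neurons had 13.4 ± 1.97 CPM and GABAergic neurons 11.5 ± 2.75 CPM, in this order in 5 of 6 replicates. Astrocytes, NFOLs, MOLs and microglia each had a mean at or below 1.59 CPM.

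Fosl2, the AP-1 subunit, was at 49.4, 63.5 and 41.4 CPM in ABCs of aplCoA and 14.2, 59.2 and 53.4 CPM in ABCs of pplCoA, again lowest in pplCoA replicate 1. It exceeded the VLMC level of 5.22 ± 1.74 CPM in 6 of 6 replicates. Fosb was sparse in every class: glutamatergic neurons held 516 of its UMIs at 1.98 ± 0.422 CPM, more than GABAergic neurons in 6 of 6 replicates, and VLMCs 34 UMIs at 4.92 ± 4.06 CPM. VLMCs were above glutamatergic neurons in 4 of 6 replicates, so the top of the Fosb order rests on few molecules.

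Egr3 was at 7.61 ± 1.41 CPM and Egr4 at 3.18 ± 0.969 CPM in glutamatergic neurons. Glutamatergic neurons were above the next class in 4 of 6 replicates for Egr3 (VLMCs) and in 5 of 6 for Egr4 (MOLs). Homer1 was much more regular: glutamatergic neurons held 171, 216 and 199 CPM in aplCoA and 185, 198 and 162 CPM in pplCoA, and exceeded GABAergic neurons (82.6 ± 9.70 CPM) in 6 of 6 replicates by 1.18 ± 0.07 (SD). NFOLs (81.2 ± 13.2 CPM) were below GABAergic neurons in 4 of 6 replicates, and OPCs (56.2 ± 6.48 CPM) stood above astrocytes (42.0 ± 2.62 CPM) in 6 of 6 replicates.

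Dusp1, the MAP kinase phosphatase, was at 139, 80.7 and 96.5 CPM in ABCs of aplCoA and 52.2, 102 and 176 CPM in those of pplCoA. Astrocytes followed with 14.5 ± 2.21 CPM, below ABCs and above VLMCs in 6 of 6 replicates each. Neurons were low, at 3.35 ± 0.625 CPM in GABAergic and 2.86 ± 0.613 CPM in glutamatergic nuclei. Ier2 spread widely in ABCs, with 55.8, 20.6 and 11.8 CPM in aplCoA and 9.49, 5.39 and 5.34 CPM in pplCoA, and was at 13.2 ± 6.68 CPM in VLMCs, below ABCs in 4 of 6 replicates. Glutamatergic neurons had 0.456 ± 0.237 CPM of Ier2, and no Ier2 or Egr4 molecule was seen in NFOLs, which allows up to 1.69 CPM (3 UMIs, counting error only).

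Per1 followed another order, highest in ABCs (63.3 ± 10.0 CPM), VLMCs (52.3 ± 8.29 CPM) and astrocytes (41.5 ± 4.11 CPM). Each of these classes exceeded the next in 6 of 6 replicates, and astrocytes exceeded MOLs (18.8 ± 3.17 CPM) in 6 of 6. GABAergic neurons (11.5 ± 2.54 CPM) were above glutamatergic neurons (10.4 ± 1.9 CPM) in 6 of 6 replicates, by 0.13 ± 0.09 (SD).

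**Figure D1:**
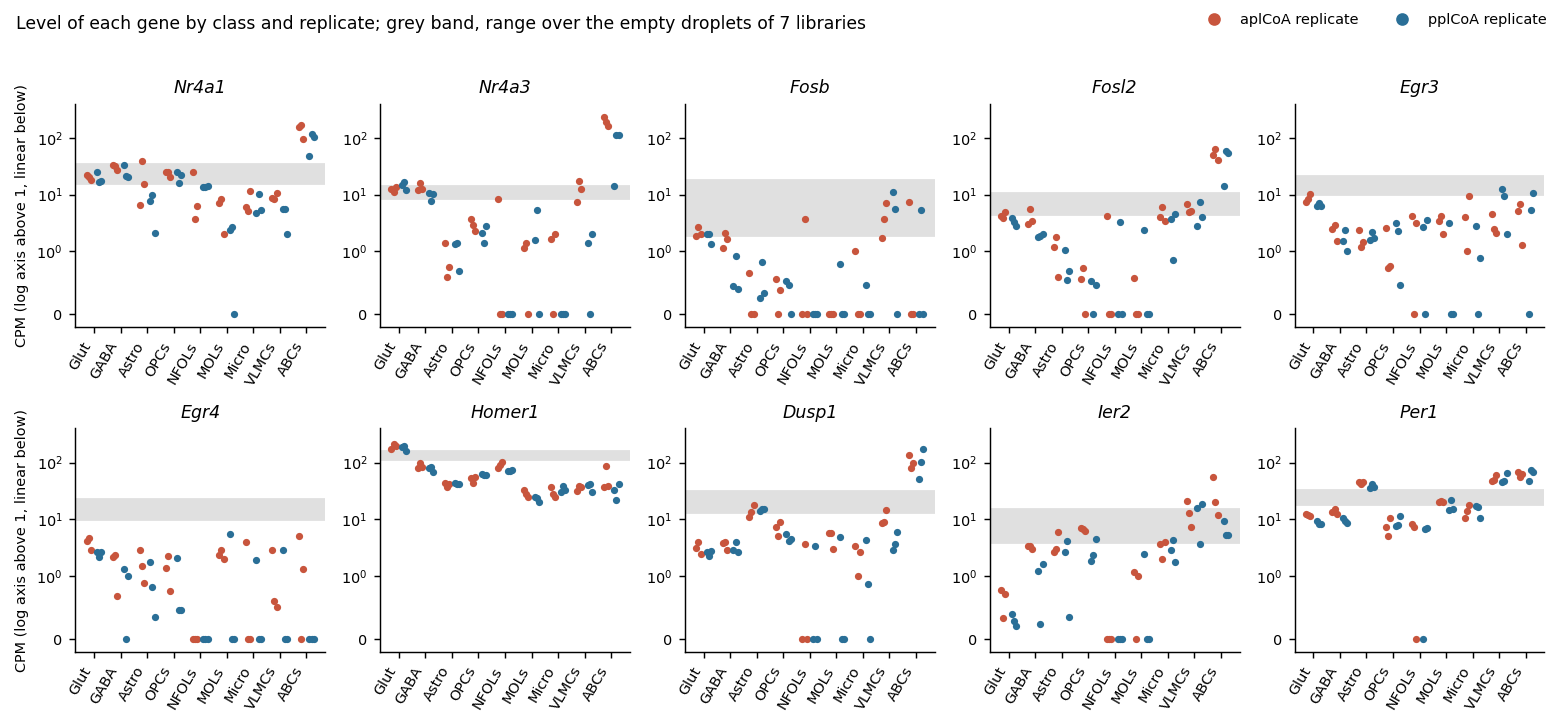
Level of each gene (CPM, log axis above 1 and linear below) in 9 classes; each point is 1 replicate, and the grey band spans the empty droplets of the 7 libraries. Nr4a1, Nr4a3, Fosl2 and Dusp1 stand highest in ABCs, Homer1 in glutamatergic neurons (Glut), and Per1 in ABCs, VLMCs and astrocytes (Astro). GABA, GABAergic neurons; Micro, microglia.

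Free RNA can put molecules of a gene into nuclei that do not make it, so the same genes were read in droplets with fewer than 100 UMIs. Homer1 was at 111 to 162 CPM there, Nr4a1 at 15.6 to 34.7 CPM and Per1 at 18.1 to 32.7 CPM. In ABCs 4 of 10 members, Nr4a1, Fosl2, Dusp1 and Per1, were above the empty droplets of all 7 libraries in every replicate, as was Per1 in VLMCs and astrocytes. No member was so in the other 6 classes. In glutamatergic neurons 4 of 10 and in OPCs 8 of 10 members were below all empty droplets in every replicate. Empty droplets held 9.77 to 21.7 CPM of Egr3 and 9.77 to 22.4 CPM of Egr4, more than the mean of each class. The ratio of Egr3 to Egr4 UMIs was 1.07 in empty droplets, and lay between 1.00 in MOLs and 3.44 in VLMCs over the 8 classes with Egr4 UMIs. It was 2.33 in glutamatergic neurons, where both genes had most of their molecules, 2.13 in microglia and 1.08 in astrocytes. The part of free RNA in any level was not tested.

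Within classes the levels were uneven. Of the 4 astrocyte clusters, the 1191 nuclei led by Myoc, A2m and Gfap held 92.5 CPM of Nr4a1, against 2.64 to 2.93 CPM in the other 3 clusters. Ier2 was at 24.9 CPM in these nuclei and at 0.827 to 1.5 CPM in the others, Dusp1 at 31.0 against 10.8 to 14.6 CPM, and Per1 at 67.9 against 37.8 to 40.9 CPM. Their Nr4a1 level was 43.8, 266 and 89.5 CPM in the aplCoA replicates and 48.0, 119 and 46.9 CPM in those of pplCoA, each above the whole range of the other clusters' pooled levels, with 26 to 388 such nuclei per replicate. Gfap-rich astrocytes with Myoc are known from the brain surface.

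The 2 ABC clusters also parted. The 890 nuclei led by Slc47a1, Slc26a7 and Adamtsl3 held 212 CPM of Nr4a3, 131 CPM of Dusp1 and 34.8 CPM of Ier2, while the 162 nuclei led by Dapl1, Dpp4 and Fn1 held 10.5 CPM, 10.5 CPM and 0 Ier2 molecules. Nr4a1 (137 against 73.5 CPM), Fosl2 (50.5 against 30.0 CPM) and Per1 (67.8 against 43.5 CPM) were closer. All 54 ABC nuclei of pplCoA replicate 1 lay in the Slc47a1 cluster, the cluster with the higher Nr4a3. Among glutamatergic clusters Homer1 ranged from 56.9 CPM in the 162 nuclei led by Trp73 to 454 CPM in the 24 led by Sim1, and among GABAergic clusters Nr4a1 ranged from 7.28 to 53.5 CPM, highest in the 897 nuclei led by Vip. These cluster values are descriptions, with no test.

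**Figure D2:**
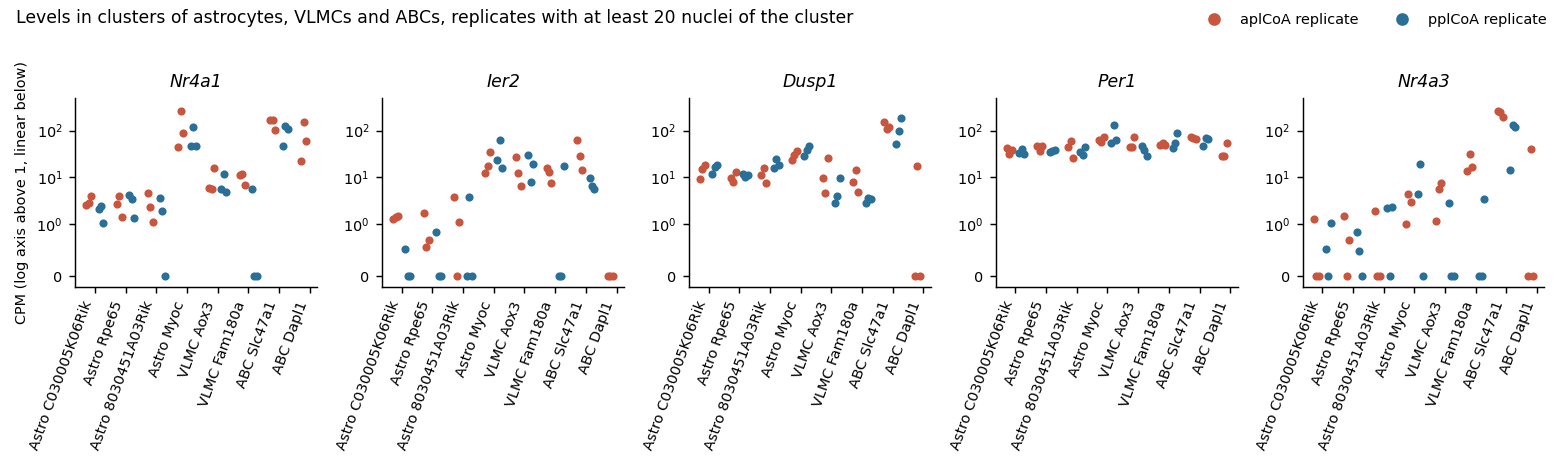
Level of 5 genes (CPM, log axis above 1 and linear below) in the clusters of astrocytes, VLMCs and ABCs, each named by its leading gene; each point is 1 replicate with at least 20 nuclei of the cluster. Nr4a1 and Ier2 stand high in the Myoc cluster of astrocytes, and Nr4a3 and Dusp1 in the Slc47a1 cluster of ABCs.

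Between domains, few member differences passed the test. For each class, the UMI sums of the replicates went into the quasi-likelihood test of edgeR, and p-values were adjusted (Benjamini-Hochberg) over all genes tested in it. Fold changes are log2 of aplCoA over pplCoA. A gene needed 60 UMIs over the 6 replicates, which left 48 pairs of member and class. Of these, 2 were called at an adjusted p under 0.05, both higher in aplCoA and both in neurons, and 14 had an unadjusted p under 0.05. In glutamatergic neurons 3 of the 10 members had such a p, beside 5801 of all 19112 genes, and in GABAergic neurons 4 of 9, beside 2939 of 14693. Pairs that reached the 60 UMIs mainly through the domain where they were high give no independent support.

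In glutamatergic neurons all 10 members were tested and 1 was called, against 15.8% of the 19112 genes tested. Per1 was at 12.4, 12.0 and 11.6 CPM in aplCoA and 9.47, 8.39 and 8.20 CPM in pplCoA, without overlap. Its log2 fold change was 0.38 (SE 0.10, adjusted p = 0.0325). The call was lost without aplCoA replicate 1 (adjusted p = 0.0974), aplCoA replicate 2 (0.0918), pplCoA replicate 2 (0.119) or pplCoA replicate 3 (0.118), and with library 2 alone as aplCoA replicate 1 (0.0687). The fold change stayed between 0.34 and 0.44 in the 6 fits that left a replicate out.

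Within glutamatergic nuclei with more Slc17a7 (VGluT1) than Slc17a6 (VGluT2), Per1 was at 12.9, 12.0 and 11.4 CPM against 9.52, 8.51 and 8.14 CPM. That difference was called too (0.43, SE 0.11, adjusted p = 0.0412), the only 1 of 10 members, where 7.68% of all genes were called. It was lost without aplCoA replicate 1 (adjusted p = 0.147), aplCoA replicate 2 (0.123), pplCoA replicate 2 (0.160) or pplCoA replicate 3 (0.150). The count of all genes called among VGluT1 nuclei fell with it, from 1409 to 3, 187, 4 and 197 in these 4 fits. VGluT2 nuclei numbered 1685, 282 and 658 in aplCoA and 272, 41 and 26 in pplCoA, and glutamatergic clusters were shared unequally, such as the cluster led by Ebf1 and Meis1 with 1373, 203 and 503 against 144, 2 and 2 nuclei. In VGluT2 nuclei none of the 9 members tested was called and none had an unadjusted p under 0.05 (background 2.02%), and Per1 differed by 0.35 (SE 0.28, adjusted p = 0.649). Empty droplets held 21.7 to 32.7 CPM of Per1 in aplCoA and 18.1 to 21.4 CPM in pplCoA, so they moved in the same direction as the nuclei. The 4 GABAergic markers, all detected, summed to 18.4, 10.5 and 12.9 CPM in glutamatergic nuclei of aplCoA and 9.77, 4.76 and 4.05 CPM in those of pplCoA, also without overlap. Of the 13 marker lists the only other one without overlap was the glutamatergic list, which went the other way. It summed to 277, 257 and 271 CPM in aplCoA and 299, 286 and 314 CPM in pplCoA. The part of the empty droplets or of these markers in the Per1 difference was not tested.

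The other 9 members did not pass the quasi-likelihood test in glutamatergic neurons. In other fits Ier2 was called by the likelihood ratio test (0.97, adjusted p = 0.0452) and with classes from own marker UMIs (1.31, adjusted p = 0.0406), and Egr4 without aplCoA replicate 3 (0.72, adjusted p = 0.0329). For 3 of the 10 members, Per1, Egr3 and Egr4, every aplCoA replicate was above every pplCoA replicate, while 37.7% of all genes were without overlap in either direction. Egr4 had 4.07, 4.67 and 2.90 CPM in aplCoA and 2.61, 2.16 and 2.68 CPM in pplCoA (0.54, SE 0.20, adjusted p = 0.101). Egr3 had 7.49, 8.29 and 10.0 CPM against 6.41, 7.12 and 6.26 CPM (0.29, SE 0.14, adjusted p = 0.196). Ier2, with 139 UMIs in all, had 0.784, 0.337 and 0.720 CPM against 0.392, 0.288 and 0.215 CPM (0.97, SE 0.36, adjusted p = 0.0961). The aplCoA and pplCoA replicates of Ier2 overlapped. Nr4a3 had the lowest fold change, -0.29 (SE 0.13, adjusted p = 0.175), and Homer1 (0.02, SE 0.11) and Nr4a1 (-0.05, SE 0.15) were close to 0.

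In GABAergic neurons 9 members were tested and 1 was called, against 7.36% of the 14693 genes tested. Ier2 was at 3.41, 3.42 and 2.99 CPM in aplCoA and 1.22, 0.233 and 1.61 CPM in pplCoA, from 85 and 20 UMIs, without overlap. Its log2 fold change was 1.52 (SE 0.39, adjusted p = 0.0226). The call was lost without aplCoA replicate 1 (adjusted p = 0.102), aplCoA replicate 2 (0.0501) or pplCoA replicate 2 (0.0930), and when aplCoA replicate 1 was its library 1 alone (0.158), with the fold change between 1.19 and 1.83 over the 6 fits that left a replicate out. DESeq2 gave 1.56 for it but no adjusted p. After each nucleus was thinned to 2000 UMIs, 0.784%, 0.952% and 0.976% of aplCoA and 0.243%, 0.126% and 0.201% of pplCoA GABAergic nuclei had an Ier2 UMI (two-sided p = 0.1 by an exact permutation test, and 3 against 3 replicates cannot give less). Without thinning the shares were 2.54% to 3.86% and 0.179% to 1.16%. Ier2 in empty droplets was 6.35 to 15.1 CPM in aplCoA and 3.80 to 7.81 CPM in pplCoA, above every GABAergic replicate, with the higher values in aplCoA. Of 13 marker lists in GABAergic nuclei, their own summed to 1246, 1292 and 1305 CPM in aplCoA against 1078, 1093 and 1090 CPM, and the mural list was lower in aplCoA without overlap (15.5 to 20.1 against 22.6 to 27.7 CPM). The part of these in the Ier2 difference was not tested.

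The remaining GABAergic differences were all above 0 and none passed the quasi-likelihood test or the likelihood ratio test. Fosl2 was called with library 2 alone as aplCoA replicate 1 (1.17, adjusted p = 0.0499), and Nr4a1 without pplCoA replicate 1 (0.49, adjusted p = 0.0387), where the reported fit gave 0.20 (SE 0.15). Not overlapping were 4 of the 9 members tested, against 25.9% of all genes, each higher in aplCoA. Fosl2 had 3.07, 5.53 and 3.40 CPM in aplCoA and 1.77, 1.86 and 2.01 CPM in pplCoA (0.92, SE 0.33, adjusted p = 0.107). Per1 had 13.6, 15.0 and 12.2 CPM against 10.4, 9.32 and 8.46 CPM (0.44, SE 0.17, adjusted p = 0.125). Nr4a3 had 12.2, 15.8 and 12.8 CPM against 10.6, 7.69 and 10.1 CPM (0.40, SE 0.18, adjusted p = 0.215), with the sign opposite to that in glutamatergic neurons.

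**Figure D3:**
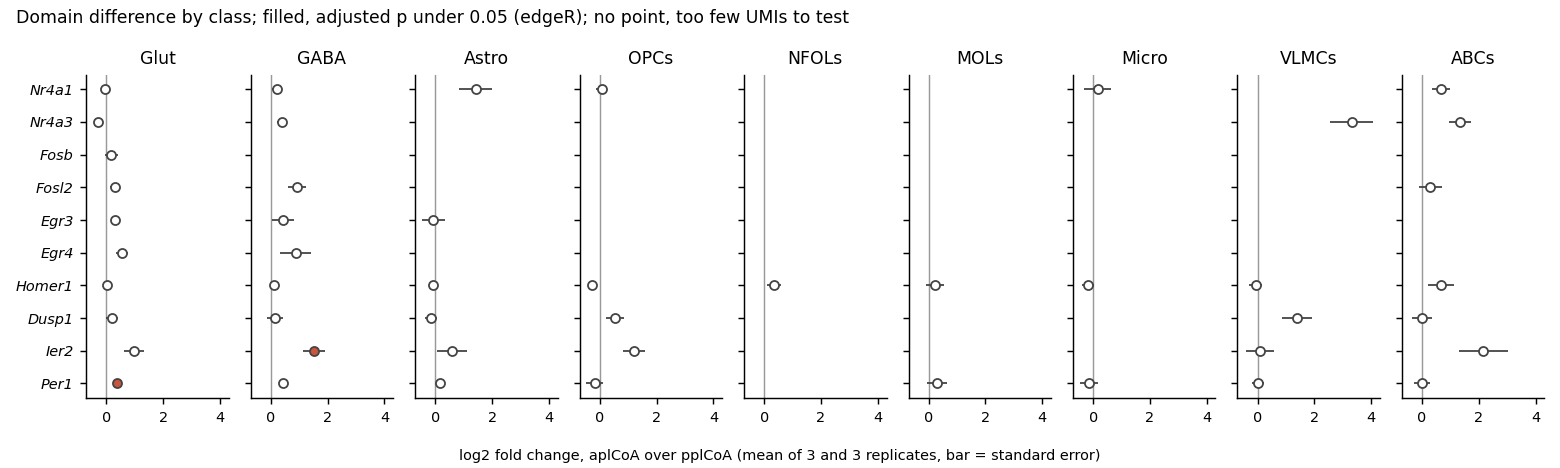
Log2 fold change of aplCoA over pplCoA with its standard error for each gene (rows) in 9 classes (panels), from 3 and 3 replicates; filled points passed at an adjusted p under 0.05, and genes with too few UMIs have no point. Only Per1 in glutamatergic neurons and Ier2 in GABAergic neurons are filled.

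Outside neurons none of the 29 member tests passed in edgeR's quasi-likelihood test, and the lowest adjusted p was 0.0856. Of these 29, 7 had an unadjusted p under 0.05, edgeR's likelihood ratio test called 2 and DESeq2 called 0. Over all genes, an unadjusted p under 0.05 was found for 1687 of 14196 in astrocytes, 2094 of 12418 in OPCs, 717 of 10369 in VLMCs and 537 of 8248 in ABCs. The 2 likelihood ratio calls were Ier2 in OPCs and Nr4a3 in VLMCs, where that test called 670 and 30 genes in all. Nr4a3 in VLMCs and in ABCs was called in other fits, given below. In all, 20 of the 29 fold changes were above 0.

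In astrocytes 6 members were tested and none was called, against 0.458% of all genes, and none was without overlap, against 18.2%. Nr4a1 ranged most, with 6.62, 38.7 and 15.5 CPM in aplCoA and 7.62, 9.67 and 2.06 CPM in pplCoA (1.42, SE 0.59, adjusted p = 0.364). aplCoA replicate 2 stood highest, as it did within the Myoc cluster, and without it the fold change was 0.62 (SE 0.47, adjusted p = 0.644). The share of Myoc cluster nuclei among a replicate's astrocytes also enters the Nr4a1 level, and its part was not tested. Per1 (0.15, SE 0.12), Homer1 (-0.10, SE 0.11), Dusp1 (-0.15, SE 0.21) and Egr3 (-0.07, SE 0.40) were near 0.

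In OPCs none of 5 members was called (background 4.24%), and 2 did not overlap, against 20.1% of all genes. Ier2 had 7.07, 6.65 and 6.15 CPM in aplCoA and 1.86, 2.32 and 4.59 CPM in pplCoA (1.20, SE 0.39, adjusted p = 0.0856). It was called without pplCoA replicate 3 (adjusted p = 0.0380) and by the likelihood ratio test (0.0405). Its UMIs numbered 50 in aplCoA and 22 in pplCoA. It thus reached the 60 UMIs mainly through aplCoA, where it was high, and these calls are no independent support. In the same nuclei the 4 NFOL markers summed to 703, 668 and 762 CPM in aplCoA and 607, 582 and 513 CPM in pplCoA, without overlap, and the astrocyte markers were lower in aplCoA (330 to 339 against 347 to 383 CPM). Their part was not tested. Homer1 was the other, lower in aplCoA with 54.0, 44.3 and 56.5 CPM against 61.8, 60.7 and 59.6 CPM (-0.27, SE 0.13, adjusted p = 0.280).

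Homer1 was the only member tested in NFOLs (0.34, SE 0.25, adjusted p = 0.735, background 0%), and Homer1 and Per1 the only ones in MOLs (adjusted p = 0.889 and 0.875, background 1.32%). In microglia Nr4a1, Homer1 and Per1 were tested, with fold changes of 0.16 (SE 0.47), -0.17 (SE 0.21) and -0.15 (SE 0.31) and a background of 0%. Few members had enough UMIs for a test in these 3 classes.

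In VLMCs 5 members were tested and none was called (background 0.0193%), and 2 did not overlap, against 12.6% of all genes. Nr4a3 had 7.50, 17.7 and 12.4 CPM in aplCoA and 1.41, 0 and 2.03 CPM in pplCoA, from 66 and 2 UMIs, a ratio of pooled levels of 10.8 with an exact 95% counting interval of 2.87 to 90.9. The fitted log2 fold change was 3.32 (SE 0.76, adjusted p = 0.190) and rests on these 2 pplCoA molecules. With the replicate number as a block, whose same-numbered VLMC replicates deviated together, it was called (3.26, SE 0.72, adjusted p = 0.0444), and the likelihood ratio test called it as well (0.0113), in fits that called 46 and 30 of the 10369 genes. The gene reached the 60 UMIs only through aplCoA, where it was high, and had too few for a test without aplCoA replicate 2 or 3, so these calls are no independent support. Nr4a3 was at 13.5, 31.1 and 16.4 CPM against 0, 0 and 3.48 CPM in the VLMC cluster led by Fam180a, without overlap, and at 1.19, 5.75 and 7.77 CPM against 2.79, 0 and 0 CPM in the cluster led by Aox3, where the domains overlapped. Dusp1 had 8.65, 9.13 and 14.4 CPM against 2.82, 3.74 and 6.10 CPM, from 58 and 7 UMIs (1.39, SE 0.53, adjusted p = 0.643). It too reached the 60 UMIs mainly through aplCoA, so the lack of overlap of Nr4a3 and Dusp1 is no independent support. VLMCs held 148 to 155 CPM of the ABC markers in aplCoA and 134 to 199 CPM in pplCoA, which overlapped. Of the 13 marker lists, 2 did not overlap and were higher in aplCoA, like Nr4a3. The 5 mural markers summed to 365, 351 and 388 CPM against 271, 226 and 248 CPM, and the 4 NFOL markers to 69.2, 53.6 and 57.8 CPM against 50.8, 48.6 and 48.8 CPM. Their part in the Nr4a3 difference was not tested. Empty droplets held 8.49 to 13.3 CPM of Nr4a3 in aplCoA and 10.3 to 14.3 CPM in pplCoA, which overlapped too.

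In ABCs 7 members were tested and none was called (background 0%), and 2 did not overlap, against 13% of all genes. Nr4a3, with the values above, had a log2 fold change of 1.34 (SE 0.39, adjusted p = 0.468), which was 0.81 (SE 0.27, adjusted p = 0.674) without pplCoA replicate 1. It was called with the replicate number as a block (1.37, adjusted p = 0.00873) and with no filter on low counts (1.43, adjusted p = 0.000161), fits that called 87 of 8248 and 97 of 19542 genes. Ier2 had 2.16 (SE 0.87, adjusted p = 0.709), from 127 UMIs in aplCoA, 97 of them in replicate 1, and 4 in pplCoA, and it had too few UMIs for a test without aplCoA replicate 1. Dusp1 (-0.0051, SE 0.34) and Per1 (0.0059, SE 0.28) were near 0. The pplCoA replicates held 48 to 54 ABC nuclei each. In ABCs the endothelial markers summed to 4.02 to 10.3 CPM in aplCoA and 0 in pplCoA, while the ABC markers (2267 to 2514 against 2630 to 3080 CPM) and the mural markers (6.32 to 6.86 against 10.7 to 16.2 CPM) were lower in aplCoA, and their part was not tested. In pplCoA replicate 2, 1 UMI amounted to 5.39 CPM, so the endothelial and mural values of pplCoA rest on few molecules.

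**Figure D4:**
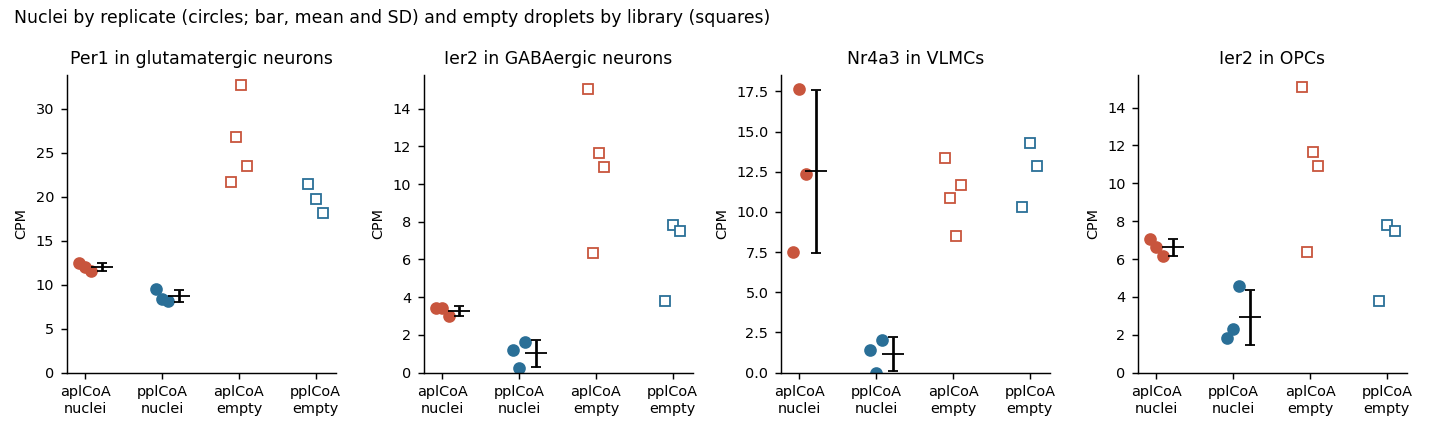
CPM of 4 gene and class pairs per replicate (circles, with mean and SD at the side, n = 3) and in the empty droplets of each library (squares). Per1 in glutamatergic neurons, Ier2 in GABAergic neurons, Nr4a3 in VLMCs and Ier2 in OPCs do not overlap between the domains, and empty droplets hold more Per1 and mostly more Ier2 than the nuclei.

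Whether a member differed between the domains to another extent in a second class was tested directly, against glutamatergic neurons. GABAergic neurons, astrocytes, OPCs, MOLs and microglia were compared in this way, and NFOLs, VLMCs and ABCs were not. None of the 25 interaction tests passed in edgeR's quasi-likelihood test with the replicate as a block. The lowest adjusted p was 0.159, 2 had an unadjusted p under 0.05, and no other tool was run for them. Of 9 members tested against GABAergic neurons 0 were called (3.6% of all genes), of 6 against astrocytes 0 (0.324%), of 5 against OPCs 0 (2.7%), of 2 against MOLs 0 (0.661%) and of 3 against microglia 0 (0%). The 2 with the lowest unadjusted p in this edgeR test were both in GABAergic neurons. The signed fold change in GABAergic less that in glutamatergic neurons was 0.62 for Nr4a3 (SE 0.21, adjusted p = 0.159), where the fold changes had opposite signs, and 0.25 for Nr4a1 (SE 0.10, adjusted p = 0.222), where they had too. The widest was Nr4a1 in astrocytes, at 1.34 (SE 0.66, adjusted p = 0.480), which was 0.70 without aplCoA replicate 2 and 1.99 without aplCoA replicate 1. For Per1 the difference was 0.04 (SE 0.14) in GABAergic neurons, -0.17 (SE 0.15) in astrocytes, -0.58 (SE 0.30) in OPCs, -0.06 (SE 0.34) in MOLs and -0.56 (SE 0.29) in microglia.

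Whether a replicate high in glutamatergic neurons was also high in astrocytes was read for each member over the 6 replicates. No correlation passed adjustment over the 10 members (exact permutation tests, lowest adjusted p = 0.481). Pearson's r was highest for Nr4a3 (r = 0.68, p = 0.117; Spearman's rho = 0.66, p = 0.175), followed by Per1 (r = 0.67, p = 0.194; rho = 0.60, p = 0.242), which were 0.32 and 0.89 without the 2 replicates farthest from the median. Homer1 was at the other end by Pearson's r (r = -0.71, p = 0.107; rho = -0.54, p = 0.297), with r = -0.98 without the 2 farthest. By Spearman's rho, Dusp1 (rho = -0.83, p = 0.0583) and Fosb (rho = -0.75, p = 0.106) were lower in the same exact tests.

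Early genes seen together in 1 nucleus were rare. After thinning to 2000 UMIs, 0.410%, 0.554% and 0.363% of glutamatergic nuclei in aplCoA and 0.299%, 0.342% and 0.248% in pplCoA had UMIs of at least 2 of the 6 early genes. The exact permutation test gave p = 0.1, the smallest it can give, for this class and for microglia, whose shares rest on few nuclei (0.290 ± 0.209% and 0.0191 ± 0.0192%, SD, n = 3). ABCs had the most, with 11.7%, 5.34% and 4.83% in aplCoA and 0.196%, 3.18% and 6.60% in pplCoA, which overlapped (exact p = 0.3). GABAergic neurons (0.381 ± 0.289% against 0.141 ± 0.0526%, p = 0.2), astrocytes (0.481 ± 0.230% against 0.209 ± 0.135%, p = 0.3), OPCs (p = 0.2) and VLMCs (p = 0.3) had higher means in aplCoA, but the replicates overlapped and the exact test gave no lower p, and MOLs and NFOLs had none. The separation depended on the depth. By the same exact test, glutamatergic neurons had p = 0.4 both at 1000 UMIs and without thinning, with overlap, and microglia p = 1 and p = 0.2. GABAergic neurons reached an exact p = 0.1 at 1000 UMIs, without thinning and with every barcode kept, and VLMCs without thinning. Without thinning the shares were 5.79 ± 1.59% and 4.57 ± 1.20% in glutamatergic neurons and 17.6 ± 6.34% and 8.63 ± 5.89% in ABCs. In microglia they were then 0.230%, 0.459% and 0.461% of 870, 218 and 434 nuclei in aplCoA. In pplCoA they were 0.156%, 0.321% and 0% of 639, 312 and 307 microglial nuclei. Nuclei under 2000 UMIs, which were left out, numbered 43 of 19719 glutamatergic and 661 of 9745 astrocyte nuclei.

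**Figure D5:**
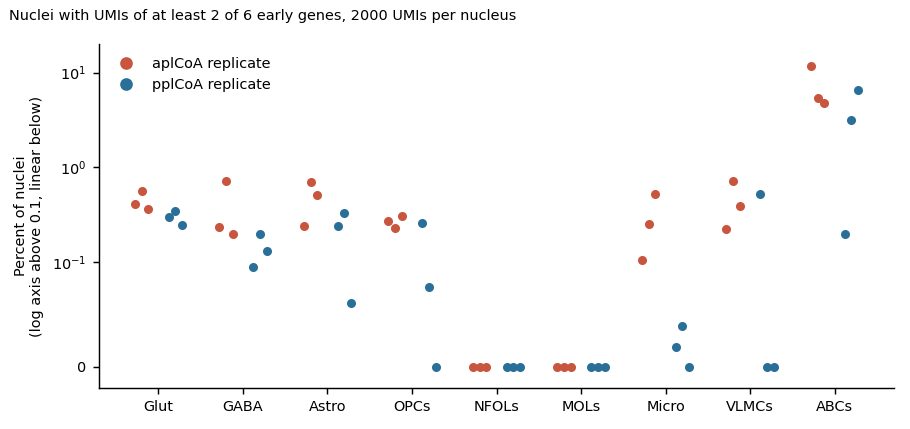
Percent of nuclei (log axis above 0.1, linear below) with UMIs of at least 2 of the 6 early genes after thinning to 2000 UMIs, by class; each point is 1 replicate. ABCs stand above the other classes in 5 of 6 replicates, and at this depth the domains overlap in all classes but glutamatergic neurons and microglia. The microglial values rest on few nuclei. Glut, glutamatergic neurons; GABA, GABAergic neurons; Astro, astrocytes; Micro, microglia.

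Other genes of the activity response, among them Fos and Egr1, were read from a list of 40. In glutamatergic neurons 38 were tested, of which 7 were called higher in aplCoA and 3 lower, with 15.8% of all genes called in either direction. The median log2 fold change was 0.30, against 0.0024 over all genes. Jund (0.97, adjusted p = 0.00343) and Junb (1.03, adjusted p = 0.0124), which encode AP-1 subunits, and Egr1 (1.06, adjusted p = 0.00466) rose, while Tiparp (-0.91, adjusted p = 0.00368), Inhba (-0.82, adjusted p = 0.00478), a subunit of activin, and Nr4a2 (-1.10, adjusted p = 0.00844), the third member of the receptor family of Nr4a1 and Nr4a3, were lower in aplCoA by the edgeR test. In GABAergic neurons 27 were tested, with 6 called higher and 1 lower (7.36% of all genes): Fos (1.51, adjusted p = 0.00587), Jund (0.79, adjusted p = 0.00773) and Egr1 (0.87, adjusted p = 0.0158) led, and Inhba was lower (-0.83, adjusted p = 0.00292). Outside neurons 2 of 97 tests passed, Jund in OPCs (0.62, adjusted p = 0.0369, 4.24% of all genes called) and in MOLs (1.05, adjusted p = 0.0133, 1.32% called). In all, 23 of the 97 had an unadjusted p under 0.05. The median fold change of the list was 0.45 in GABAergic neurons. Outside neurons it was 0.69 in ABCs (17 of 19 above 0), 0.36 in astrocytes (20 of 23) and 0.33 in OPCs (14 of 17). It was lower, though above 0, in microglia (0.21, 12 of 17), MOLs (0.13, 4 of 5) and VLMCs (0.082, 10 of 16).

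Of 17 clock genes other than Per1, 4 were called higher and 2 lower in glutamatergic neurons (15.8% of all genes). Their median fold change was -0.0043, with 8 of 17 above 0. Per3, a partner of Per1 in the negative limb of the clock, was at 40.5, 39.7 and 42.6 CPM in aplCoA and 28.8, 26.8 and 28.03 CPM in pplCoA (0.47, SE 0.07, adjusted p = 0.00477), the same sign as Per1. Bhlhe41 (0.70, adjusted p = 0.0199) and Dbp (0.66, adjusted p = 0.0210) were also higher by edgeR, and Hlf (-0.66, adjusted p = 0.0124) and Rorb (-0.64, adjusted p = 0.0148) lower. In GABAergic neurons 0 of 17 clock genes were called by edgeR, with 4 at an unadjusted p under 0.05, where 7.36% of all genes were called and 2939 of 14693 had such a p. Outside neurons 0 of 85 tests were called, with 7 under 0.05, where 0% to 4.24% of all genes were called.

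Of 14 glucocorticoid-responsive genes, 12 were tested in glutamatergic neurons, where Cdkn1a (1.42, adjusted p = 0.00911) was higher and Zbtb16 (-0.97, adjusted p = 0.00389) and Sult1a1 (-0.79, adjusted p = 0.0233) were lower in aplCoA, 3 of 12 against 15.8% of all genes. In GABAergic neurons 2 of 11 were called, against 7.36%, of which Mt1, which encodes a metallothionein, was higher (0.64, adjusted p = 0.0264) and Zbtb16 lower (-0.42, adjusted p = 0.00668) in edgeR's test. Outside neurons 0 of 59 tests of this list were called, with 9 at an unadjusted p under 0.05, where 0% to 4.24% of all genes were called. Homer2 and Homer3, the other members of the Homer family, were called in no class, with 2 of their 14 edgeR tests at an unadjusted p under 0.05.

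Genes tied to stress and RNA quality also differed between the domains. In glutamatergic neurons 7 of 10 heat shock genes were called higher in aplCoA and none lower, with a median of 0.54, led by Hspa8 (1.35, adjusted p = 0.00343) and Hsp90aa1 (0.95, adjusted p = 0.00352) in edgeR's test. The corresponding counts were 4 of 7 in GABAergic neurons, 4 of 7 in OPCs and 2 of 6 in MOLs, and 0 in the other classes. Over all genes, 15.8% were called in glutamatergic neurons, 7.36% in GABAergic neurons, 4.24% in OPCs and 1.32% in MOLs. The median fold change of mitochondrially encoded genes lay between 0.71 and 1.16 over the 9 classes and that of ribosomal protein genes between 0.24 and 0.70. Mitochondrially encoded genes were called higher for 10 of 13 in glutamatergic neurons, 8 of 13 in GABAergic neurons and 8 of 10 in OPCs. They were so for 5 of 9 in MOLs and 5 of 12 in astrocytes, where 0.458% of all genes were called. Ribosomal protein genes were called higher for 61 of 80 in glutamatergic neurons, 49 of 78 in GABAergic neurons, 45 of 78 in OPCs and 15 of 76 in MOLs. Neither list had a call in the classes not named for it. Their part in the differences of Per1, Ier2 and the other activity genes was not tested.

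By likeness of class means over the 9 classes, among 15948 genes, Nr4a1 was nearest to Emb (r = 0.96), Mkx (0.95) and Gpr161 (0.94), and Nr4a3 to Ptgis (0.98), Timp1 (0.98) and Klf5 (0.97). Dusp1 was nearest to 2010001K21Rik (0.98), Ecrg4 (0.98) and 4930523C07Rik (0.96), Fosl2 to Crim1 (0.96), Gm20456 (0.95) and Thbs1 (0.95), and Ier2 to Ptpn21 (0.98), Slc39a13 (0.95) and Trip10 (0.95). Homer1 was nearest to Gm33045 (0.97), Crhr1 (0.96) and Efcab1 (0.95), Egr3 to Gm33524 (0.95), Ptgs2os (0.95) and Adam33 (0.92), and Per1 to Npepps (0.98), Ttc23 (0.98) and Pdgfrl (0.96). Among the members, Nr4a3 and Fosl2 were most alike (0.86) and Homer1 and Per1 least (-0.52). These 9 means share libraries and depth and carry no test, and Fosb and Egr4 were too low to enter.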

How the data were processed

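Nuclei were isolated from frozen tissue, sorted by DNA dye and sequenced with a 10x 3′ kit in 7 libraries, 4 of aplCoA and 3 of pplCoA. The deposited values are raw UMI counts per gene and barcode, which the authors made with Cell Ranger 5.0.0 on mm10, reads in introns included. Free RNA and reads in introns therefore enter every count.

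Barcodes with at least 1000 genes were kept (52201), then those under an upper UMI limit of the median plus 5 scaled median absolute deviations (51538) and 5 interquartile ranges above the upper quartile of mitochondrial and ribosomal percentages (50507), and predicted doublets were removed at 1% per 1000 nuclei, which left 46389. Nuclei were clustered with scanpy 1.11.5 (Pearson residuals with theta 100, 5000 variable genes, 50 components, 15 neighbours, Leiden resolution 1.0) with 50 activity genes left out, and clusters were named from markers. The names were rebuilt here and may differ from those of the study. Classes with at least 20 nuclei in every replicate were tested. UMIs were summed per class and replicate, genes with at least 60 UMIs were tested with edgeR 4.0.16 (R 4.3.3, quasi-likelihood, TMM scaling), and adjusted p under 0.05 was called. Domain effects in a second class were compared with those in glutamatergic neurons by an interaction term with the replicate as block. DESeq2 1.42.0 was an alternative. Shares of nuclei were means of 10 draws thinned to 2000 UMIs. Per class and list, up to 3 genes called in each direction were named, by lowest adjusted p. Likeness used genes with a highest class mean of at least 5 CPM.

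The fits were tested on simulated counts with planted changes larger than those called for Per1 and Ier2. That test does not show how the fits perform on smaller changes. The members and lists were chosen with earlier results of these data known. Intervals and limits cover counting error only. Macrophages, endothelial and mural cells were too few to test, and 351 nuclei stayed unnamed.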

Additional observations from a re-analysis of the deposited data

Results flagged for a closer look

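In empty droplets, Fosb in library 1 of aplCoA replicate 1 was at 18.2 CPM, far from the other 3 aplCoA libraries at 4.06 to 4.54 CPM. It was the only one of the 10 genes so marked by Dixon's test among the 4 aplCoA libraries, and chance marks about 1 in 20 such groups.

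Members were also seen in classes too small for any comparison, above what a count of 3 UMIs allows. In 266 macrophages (limit 3.88 CPM), Nr4a1 was at 5.17 CPM, Fosl2 at 14.2 CPM, Homer1 at 86.7 CPM, Dusp1 at 5.17 CPM, Ier2 at 6.47 CPM and Per1 at 32.3 CPM. In 64 endothelial cells (limit 6.36 CPM), Nr4a1 was at 31.8 CPM, Nr4a3 at 25.4 CPM, Egr3 at 8.48 CPM, Egr4 at 14.8 CPM, Homer1 at 197 CPM, Dusp1 at 19.1 CPM, Ier2 at 29.7 CPM and Per1 at 10.6 CPM. By their own marker UMIs, 28.1% of these 64 nuclei fell in the same class. In 40 mural cells (limit 27.6 CPM), Homer1 was at 36.8 CPM and Dusp1, Ier2 and Per1 were at 46.0 CPM each. Empty droplets held 111 to 162 CPM of Homer1, and the part of free RNA in these values was not tested.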

How the results depend on the processing

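Of the 48 pairs of gene and class, 2 were called. The likelihood ratio test called 5, DESeq2 1, a filter on genes seen in 10% of nuclei 1, no filter on low counts 5, the replicate block 4, library 1 alone as aplCoA replicate 1 gave 1, and an adjusted p under 0.01 with at least 1.5-fold 0. Leaving out a replicate gave 0 to 3, with 0 without aplCoA replicate 1, aplCoA replicate 2 or pplCoA replicate 2. Without a filter, Nr4a1 in astrocytes (1.44), Nr4a3 in VLMCs (3.37) and Nr4a3 in ABCs (1.43) were added, and the block added both Nr4a3 pairs (3.26 in VLMCs and 1.37 in ABCs). The cause was not tested. Same-numbered replicates correlated above 0.1 in all 3 pairs in VLMCs only (0.105 to 0.253), and differently numbered ones reached at most 0.0526 there. The reported fits had no block, and pairing of samples would hold for every class or for none. Replicates 1 to 3 reached 0.489, 0.106 and 0.0912 in microglia, where differently numbered ones reached up to 0.259. In astrocytes the values were 0.332, 0.108 and 0.0529, against up to 0.140. In ABCs they were 0.205, 0.105 and 0.0346, against up to 0.0411. Whether samples are paired cannot be told from these values. With the block, genes called rose from 65 to 564 in astrocytes, 0 to 40 in microglia and 0 to 87 in ABCs. They fell from 3013 to 2983 in glutamatergic and from 1082 to 909 in GABAergic neurons. Among the 14 pairs with an unadjusted p under 0.05, none changed sign in the 255 values of the reported fit and its 19 alternatives. Some pairs had too few UMIs under some of them. Of the other 34 pairs, 18 changed sign under at least 1. Interaction tests called 0 under each alternative run. ABCs were the highest class for 6 genes, and for 5 with every barcode kept or with classes from own marker UMIs. Shares of nuclei with early genes together kept their sign, but their separation between domains changed with the thinning depth.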
